A study of Mus musculus with 8 samples.

Results

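The genes described here are 35 mouse genes through which blood vessel cells hold leukocytes and answer inflammatory signals. They were chosen by name as the selectins, ICAM and VCAM adhesion molecules, chemokines and cytokines, NF-kB subunits and inhibitors, and the TNF and IL-1 receptors with their adaptor. All 35 were found among the 31610 genes of the count matrix, and 31 of them had enough counts to be tested. The series measured RNA in endothelial cells sorted from the lungs of C57BL/6J mice given an adeno-associated virus (AAV), a gene delivery vector. In 4 libraries the mice had received an nANGPTL4 AAV and in 4 libraries a Control AAV, and each library is an independent biological replicate of its group. Lipoprotein lipase, which frees fatty acids from blood lipids, is inhibited by secreted ANGPTL4, of which nANGPTL4 denotes the N-terminal piece. The titles of the nANGPTL4 AAV libraries read NT Treated, so that their group rests on the treatment field. Vector dose, interval to harvest, age and sex of the mice are not given in the sources used here.

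NF-kB is a family of dimeric transcription factors held in the cytoplasm by IkB proteins. Signals from the TNF, IL-1, CD40 and Toll-like receptors activate the IKK kinases, which mark IkB for destruction and free the dimers to enter the nucleus. In endothelium the freed factors raise E-selectin, P-selectin, VCAM-1, ICAM-1 and chemokines, by which leukocytes roll, stop and cross the vessel wall. They also raise their own inhibitors, among them Nfkbia and Tnfaip3, which end the response.

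Many NF-kB target genes carry a binding motif close to their start. Shown are 4 promoters of the group that hold a match to such a motif, from genes with results below. Windows from 250 bases before to 50 bases after the start were taken from RefSeq (GRCm38.p6, the assembly of mm10), where 26 of the 35 genes had 30 windows. The 10-base kB consensus and the shorter motif GGNNTTTCC, whose matches can overlap the consensus, were searched on both strands. Windows with the consensus made up 50% of the 30 windows of these genes, against 8.46% of all 32851 windows in the table. For GGNNTTTCC the share was 50%, against 5.82%. Counted by gene, both shares were again 50%, against 9.55% of all genes in the table for the consensus and 6.62% for GGNNTTTCC. The genes were chosen by name with NF-kB targets among them, so that a higher share tests nothing. Such a match describes the letters only. Capitals mark the bases of either motif, and each sequence reads 5′ to 3′ on the strand of its gene. Nfkbia is shown from chr12:55492598-55492897 (minus strand), Rel from chr11:23770920-23771219 (minus strand), Tnip1 from chr11:54962891-54963190 (minus strand) and Icam1 from chr9:21015690-21015989 (plus strand).
Nfkbia: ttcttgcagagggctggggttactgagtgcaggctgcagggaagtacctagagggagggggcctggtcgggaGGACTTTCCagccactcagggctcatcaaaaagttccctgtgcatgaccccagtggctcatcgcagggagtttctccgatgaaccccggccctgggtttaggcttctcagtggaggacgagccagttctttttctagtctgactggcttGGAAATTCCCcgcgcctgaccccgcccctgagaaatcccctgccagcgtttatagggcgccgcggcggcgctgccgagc
Rel: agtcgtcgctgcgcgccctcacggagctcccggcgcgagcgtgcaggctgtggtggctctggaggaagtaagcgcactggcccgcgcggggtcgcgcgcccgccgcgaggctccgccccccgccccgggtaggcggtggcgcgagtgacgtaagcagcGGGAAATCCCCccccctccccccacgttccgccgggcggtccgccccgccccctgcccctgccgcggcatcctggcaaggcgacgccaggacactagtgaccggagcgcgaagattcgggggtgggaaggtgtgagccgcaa
Tnip1: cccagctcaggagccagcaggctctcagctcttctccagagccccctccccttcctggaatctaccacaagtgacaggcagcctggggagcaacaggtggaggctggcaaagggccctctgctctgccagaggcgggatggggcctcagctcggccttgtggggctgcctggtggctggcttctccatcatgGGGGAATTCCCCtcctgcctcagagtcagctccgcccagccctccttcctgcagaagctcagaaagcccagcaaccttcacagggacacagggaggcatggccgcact
Icam1: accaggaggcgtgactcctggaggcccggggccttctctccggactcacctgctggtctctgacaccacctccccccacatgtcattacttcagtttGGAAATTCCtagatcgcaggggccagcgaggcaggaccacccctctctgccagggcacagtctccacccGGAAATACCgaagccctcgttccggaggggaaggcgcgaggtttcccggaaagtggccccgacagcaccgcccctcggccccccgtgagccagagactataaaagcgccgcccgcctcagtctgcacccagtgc
Nfkbia, Rel and Tnip1 hold the consensus in these windows. Counted from the start base as 0, the consensus lies at -29 to -20 in Nfkbia, within -92 to -82 in Rel and within -58 to -47 in Tnip1, where matches overlap. Icam1 holds 2 matches to the shorter motif, at -153 to -145 and -84 to -76, and 0 to the consensus. Sele, Tnfrsf1a, Rela, Cx3cl1 and Cd34 also have results below, and their windows, not shown, hold 0 matches to either motif.

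Total counts ran from 91750817 to 108921765 in nANGPTL4 AAV and from 83183122 to 114337333 in Control AAV. Levels are given as counts per 1000000 counts (CPM) after TMM scaling, and, between genes, as CPM per kilobase of annotated exon. The 12 endothelial markers summed to 20434.5 to 21091 CPM in nANGPTL4 AAV and to 21153 to 21786 CPM in Control AAV, and all 12 were above 0 in every library. Of the 12, 10 were negative and 0 were called, with a median of -0.05 on the log2 scale. The groups did not overlap in 3, all lower in nANGPTL4 AAV, where 10.9% of all genes did not overlap in either direction. Angptl4 itself had a mean of 5.04 CPM in nANGPTL4 AAV and 3.26 CPM in Control AAV (log2 fold change 0.63, SE 0.17, edgeR adjusted p = 0.110), and whether vector reads could be counted under it is not stated. The 26 leukocyte markers summed to 199 to 520 CPM in nANGPTL4 AAV and to 179 to 369 CPM in Control AAV. Most of that was Cd74, which endothelium also expresses, and without it the sums were 41.6 to 70.7 CPM in nANGPTL4 AAV and 25.9 to 52.2 CPM in Control AAV. Of the 26, 15 stayed under 1 CPM in every library and 0 were at 0 in all of them. The pan-leukocyte marker Ptprc had a mean of 0.780 CPM in nANGPTL4 AAV and 0.517 CPM in Control AAV. Of the 16 leukocyte markers tested, 15 were positive, 0 were called and the median of their log2 fold changes was 0.47. At an unadjusted p under 0.05 there were 4, all higher (25%, against 17.6% of all genes). The groups did not overlap in 1, Cd68, where 10.9% of all genes did not. It had a mean of 6.57 CPM in nANGPTL4 AAV and 4.79 CPM in Control AAV (log2 fold change 0.46, SE 0.10, edgeR adjusted p = 0.0718). The 16 lung epithelial markers summed to 202 to 327 CPM in nANGPTL4 AAV and 94.3 to 246 CPM in Control AAV. Of these, 14 were positive and 1 was called, where 0.138% of all genes were. It was the secretory cell gene Scgb3a2, whose call was lost in all 8 fits that left out 1 library (edgeR adjusted p = 0.0620 to 0.162). The 10 erythroid and platelet markers summed to 74.8 to 87.4 CPM in nANGPTL4 AAV and 45.9 to 89.0 CPM in Control AAV. Of the 9 tested, all 9 were positive and 0 were called, and the median on the log2 scale was 0.74. An unadjusted p under 0.05 was found in 5 (55.6%, against 17.6% of all genes). The part of such cells in the levels of genes they share with endothelium, such as Rel, Cd40, Tnfrsf1b and Lcn2, or Selp in platelets, was not tested.

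Several adhesion and signalling genes were abundant in both groups, while acute cytokine genes were near the limit of detection. Per kilobase, Icam2 led with 599 CPM in nANGPTL4 AAV and 602 CPM in Control AAV, a level that 99.8% of tested genes did not exceed. Averaged over all 8 libraries it was at 601 CPM per kilobase, followed by Nfkbia at 391, Tnfrsf1a at 147, Icam1 at 136, Rela at 120, Cx3cl1 at 111 and Cd34 at 76.7. At the other end of the same scale, Sele was at 1.63, Traf1 at 0.452, Cxcl1 at 0.434, Lcn2 at 0.237, Cxcl2 at 0.123 and Il6 at 0.0693, the lowest that could be tested. Madcam1, the adhesion molecule of gut and mucosal vessels, had 0 to 2 counts per nANGPTL4 AAV library and 0 to 3 per Control AAV library. Ccl2, which draws monocytes, reached at most 8 counts in an nANGPTL4 AAV library and 6 in a Control AAV library. Ccl7, a related chemokine, reached at most 3 counts in either group. Csf3, the granulocyte growth factor, reached at most 10 counts in nANGPTL4 AAV and 3 in Control AAV. These 4 genes fell under the low-count filter and were not tested, and a count of 0 in a library allows up to 3 counts. Counting error alone is covered by that limit.

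**Figure D1:**
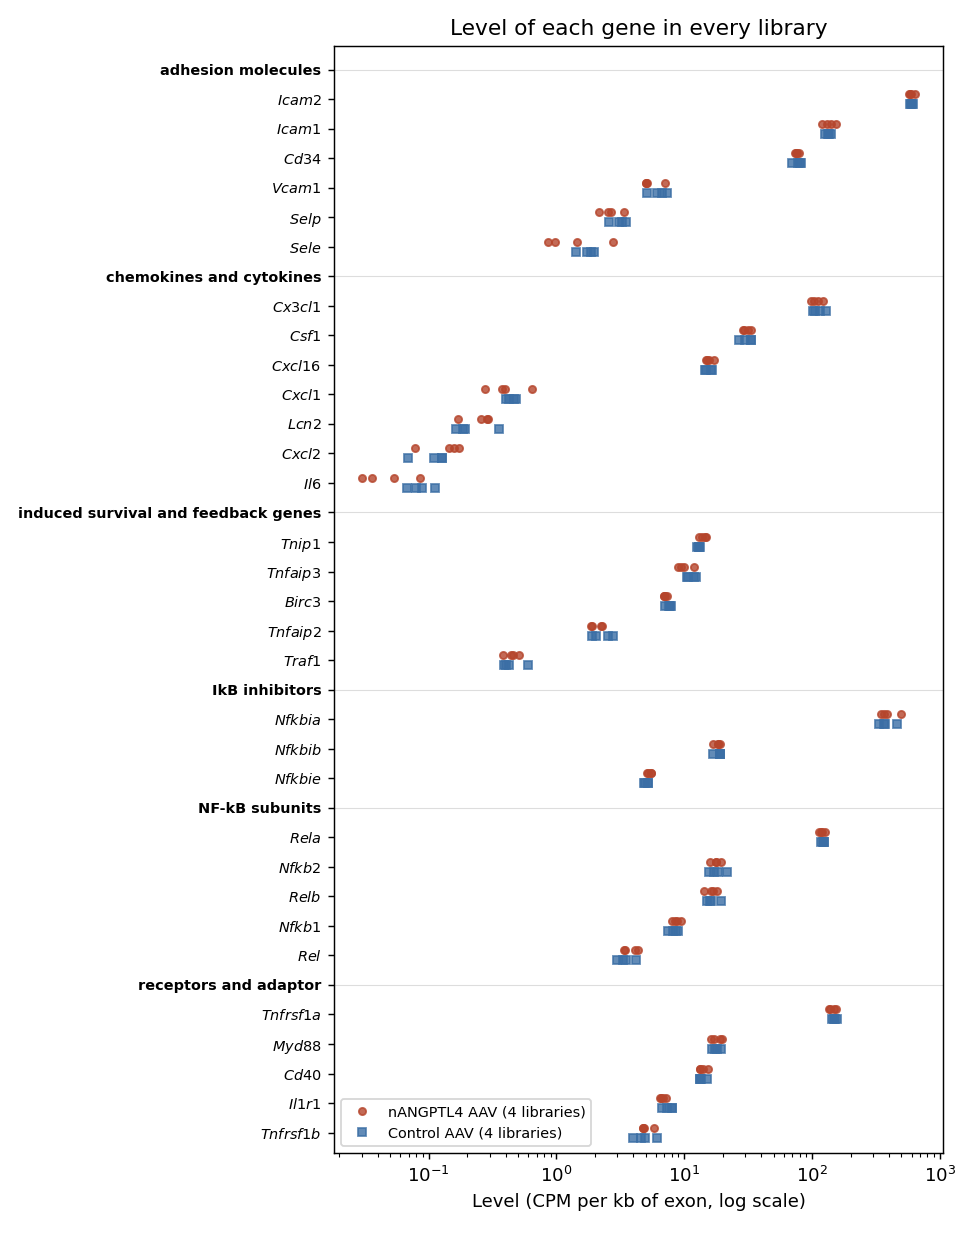
Level of the 31 tested genes in each of 4 nANGPTL4 AAV libraries (red circles) and 4 Control AAV libraries (blue squares), in CPM per kilobase of exon on a log axis, grouped by role. In every gene the 2 groups of libraries overlap, and levels run from Icam2 near 601 down to Il6 under 0.1 CPM per kilobase on average over the 8 libraries.

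Delivery of nANGPTL4 was set against the control vector to ask whether this endothelial programme differed. No gene of the group passed the test. Of the 31 tested genes, 0 rose and 0 fell at an adjusted p under 0.05 in edgeR's quasi-likelihood test, where 0.138% of all 18874 genes (26 genes) passed. DESeq2 also called 0 of them and gave 2 no adjusted p, where it called 5.07% of all genes, and limma-voom called 0, where it called 0.111% of all genes. At an unadjusted p under 0.05 there were 3, Tnip1 higher and Il1r1 and Il6 lower, or 9.68% of the group against 17.6% of all genes. In 0 of the 31 did the nANGPTL4 AAV libraries all lie on one side of the Control AAV libraries, which 10.9% of all genes did. The median log2 fold change (nANGPTL4 AAV minus Control AAV) was -0.02 over the 31 genes and 0.01 over all genes tested, with 12 of the 31 positive and 19 negative. Under upper quartile scaling the medians were 0.01 over the 31 genes and 0.05 over all genes, and with library size only 0.02 and 0.05. Without nANGPTL4 AAV library 4 the median over the 31 genes was 0.007 under TMM scaling. The sign of that median thus depended on the scaling and on that library. Over the 9256 genes with a mean log2 CPM above 3, the median was -0.03. With any single library omitted, 1 or 2 genes were called over all genes and 0 in this group.

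The intervals of the fold changes bounded the differences that the data allow. Of the 27 genes with a mean of at least 1 CPM, 20 had a 95% interval of the fold change that lay within 1.25-fold either way, and 26 had one within 1.5-fold. Sele was the exception, with an interval from 0.541-fold to 1.39-fold. The largest absolute log2 fold change among the 27 was 0.21, in Selp. The intervals are for each gene on its own and are not adjusted for the number of genes. The coefficient of variation between libraries of a group had a median of 7.52% in nANGPTL4 AAV and 8.18% in Control AAV over these 27 genes.

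**Figure D2:**
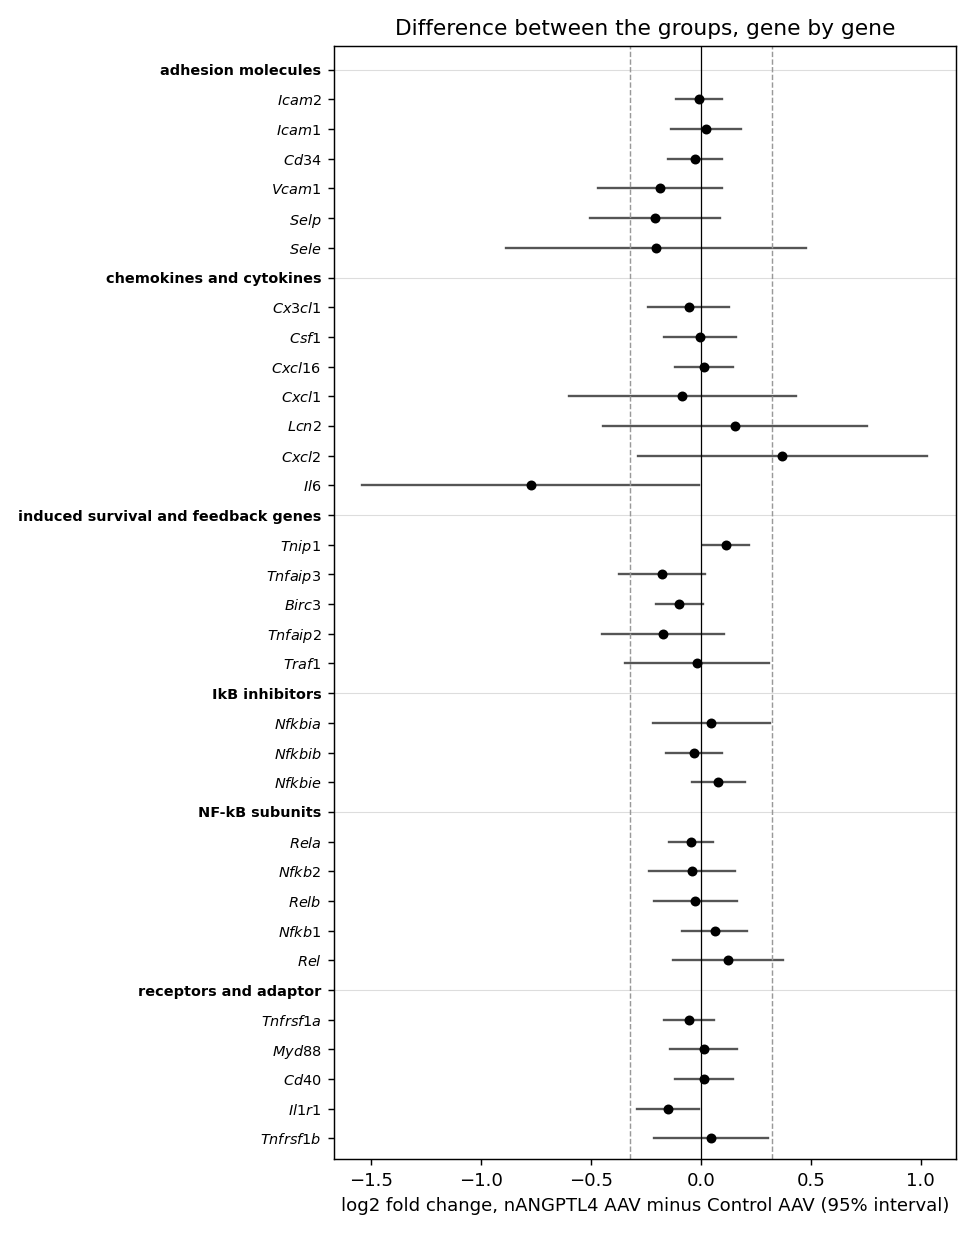
Log2 fold change of each tested gene, nANGPTL4 AAV minus Control AAV (points), with its 95% interval (lines, edgeR, 4 libraries per group). Dashed lines stand at 1.25-fold either way. Among the abundant genes, Icam2 and Rela have narrow intervals and Nfkbia a wider one, and Sele, Cxcl1, Cxcl2, Lcn2 and Il6, all of low level, have the widest ones.

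Among the adhesion molecules, ICAM-2, which endothelium makes without stimulation, and ICAM-1, the inducible ligand of leukocyte integrins, were at nearly equal levels in both groups. Icam2 was at 1135, 1113, 1224 and 1093 CPM in nANGPTL4 AAV libraries 1 to 4, against 1118, 1152, 1138 and 1180 CPM in Control AAV libraries 1 to 4. The highest and the lowest of the 8 values were both nANGPTL4 AAV libraries. Its log2 fold change was -0.01 (SE 0.05, edgeR adjusted p = 0.955). Icam1 was at 612, 525, 676 and 572 CPM in nANGPTL4 AAV, against 616, 589, 554 and 585 CPM in Control AAV, a log2 fold change of 0.03 with an SE of 0.07 (edgeR adjusted p = 0.885). The Control AAV values again lay inside the range of the nANGPTL4 AAV values. Cd34, a sialomucin of capillary endothelium that can carry selectin ligands, averaged 554 ± 15.9 CPM in nANGPTL4 AAV and 564 ± 39.9 CPM in Control AAV (SD, n = 4 each).

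VCAM-1, which binds the integrin VLA-4, and the selectins, which start leukocyte rolling, had the largest differences in the adhesion group, all towards lower values. Vcam1 was at 62.9, 44.2, 44.5 and 45.8 CPM in nANGPTL4 AAV, against 54.6, 64.9, 45.6 and 59.0 CPM in Control AAV. Library 1 stood well above the other nANGPTL4 AAV libraries, which lay together at the bottom beside Control AAV library 3. Its log2 fold change was -0.18 (SE 0.13, edgeR adjusted p = 0.492), and it was -0.31 without nANGPTL4 AAV library 1 and -0.09 without Control AAV library 2, again without a call. Selp, the P-selectin gene, was at 14.98, 11.1, 11.8 and 9.46 CPM in nANGPTL4 AAV, against 13.7, 14.3, 11.3 and 15.4 CPM in Control AAV (log2 fold change -0.21, SE 0.13, edgeR adjusted p = 0.454). Its value was -0.33 without nANGPTL4 AAV library 1 and -0.12 without nANGPTL4 AAV library 4. Sele, the E-selectin gene, was at 8.09, 2.52, 2.85 and 4.24 CPM in nANGPTL4 AAV, against 5.43, 5.71, 5.08 and 4.11 CPM in Control AAV. nANGPTL4 AAV held both its highest value, in library 1, and its lowest values, in libraries 2 and 3. The log2 fold change of Sele was -0.20 (SE 0.31, edgeR adjusted p = 0.777). It was -0.66 without nANGPTL4 AAV library 1 and 0.0027 without nANGPTL4 AAV library 2, so that single libraries set its size. Sele and Selp lie on the plus strand of chromosome 1, at 164048234 to 164057677 and 164115264 to 164150026.

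Vcam1 and Selp are known to be most abundant in veins and larger vessels. The 11 venous and large vessel markers other than these genes summed to 4169 to 4599 CPM in nANGPTL4 AAV and to 5071 to 5465 CPM in Control AAV, so that the groups did not overlap. The list joins venous and arterial genes. With Vcam1 and Selp included, 13 of 13 were negative, and the median of their log2 fold changes was -0.24. Of the 13, 9 had an unadjusted p under 0.05 (69.2%, against 17.6% of all genes). The groups did not overlap in 3, where 10.9% of all genes did not. Among the 13, 1 was called lower, the arterial connexin Gja5, where 0.138% of all genes were called. With 1 library left out, that call held in 1 of 8 fits, the one without Control AAV library 2, while its log2 fold change stayed between -0.64 and -0.54 (edgeR adjusted p = 0.0146 to 0.115). Fewer cells of a vessel type and less RNA per cell cannot be told apart in these bulk samples. The part of these vessel types in the Vcam1 and Selp values was not tested.

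**Figure D3:**
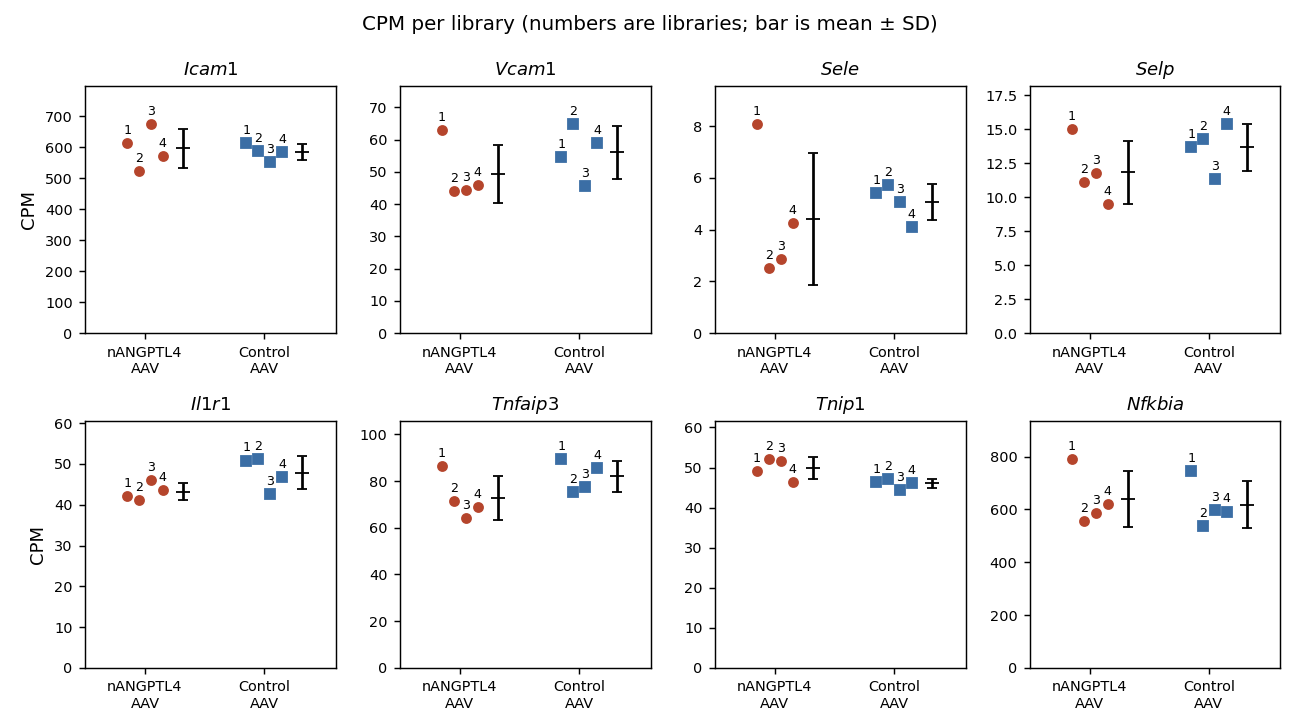
CPM of 8 genes in each library, with nANGPTL4 AAV at left and Control AAV at right of each panel. Numbers name the libraries, and the bar gives the mean and SD of 4 libraries. The groups overlap in every panel, and library 1 of both groups is the highest of its group for Nfkbia and Tnfaip3.

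Of the chemokines and cytokines, the membrane-bound chemokines Cx3cl1 and Cxcl16 and the growth factor gene Csf1 were well expressed, and the other 7 genes averaged under 1 CPM. Cx3cl1, which encodes the tethered chemokine fractalkine, was at 383, 437, 481 and 408 CPM in nANGPTL4 AAV, against 501, 400, 417 and 457 CPM in Control AAV (log2 fold change -0.05, SE 0.08, edgeR adjusted p = 0.778). Csf1, the macrophage growth factor, averaged 162 ± 10.5 CPM in nANGPTL4 AAV and 163 ± 16.4 CPM in Control AAV (SD, n = 4 each). Cxcl16, a second membrane-bound chemokine, averaged 47.1 ± 2.97 CPM in nANGPTL4 AAV and 46.6 ± 3.01 CPM in Control AAV (SD, n = 4 each). These 3 had intervals within 1.25-fold either way.

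Il6, which encodes the cytokine interleukin-6, had the largest fold change of the group and among the fewest counts. Its counts were 12, 21, 8 and 9 in nANGPTL4 AAV libraries 1 to 4, against 15, 22, 18 and 27 in Control AAV libraries 1 to 4. In CPM, nANGPTL4 AAV libraries 1, 3 and 4 were below every Control AAV library, and library 2 was above 2 of them. The log2 fold change was -0.77 (SE 0.35, edgeR adjusted p = 0.280), and DESeq2 gave no adjusted p at this level. The neutrophil chemokines Cxcl1 and Cxcl2 are neighbours on chromosome 5 with related sequences, and whether this affected their counts was not tested. Cxcl1 averaged 0.791 ± 0.291 CPM in nANGPTL4 AAV and 0.837 ± 0.0670 CPM in Control AAV, and Cxcl2 0.287 ± 0.0869 CPM in nANGPTL4 AAV and 0.224 ± 0.0571 CPM in Control AAV (SD, n = 4 each). Lcn2, which encodes a siderophore-binding protein of neutrophils and inflamed epithelium, averaged 0.658 ± 0.148 CPM in nANGPTL4 AAV and 0.586 ± 0.231 CPM in Control AAV (SD, n = 4 each). The 95% intervals of these 4 genes all reached beyond 1.5-fold in a single direction, lower for Il6 and Cxcl1 and higher for Cxcl2 and Lcn2. The data allow differences of that size in that direction. The parts of depth and of the spread between libraries in these widths were not tested.

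The genes that NF-kB induces for survival and feedback had values on both sides of 0, and 0 of 5 passed. Tnip1, whose protein binds A20 and restrains NF-kB, had the smallest p of the group. It was at 49.1, 52.2, 51.7 and 46.5 CPM in nANGPTL4 AAV, against 46.5, 47.1, 44.4 and 46.2 CPM in Control AAV, a log2 fold change of 0.11 with an SE of 0.05 (edgeR adjusted p = 0.238). nANGPTL4 AAV libraries 1, 2 and 3 exceeded every Control AAV library, while library 4 lay among them. Tnfaip3, which encodes the ubiquitin-editing inhibitor A20 itself, was at 86.4, 71.6, 64.3 and 68.7 CPM in nANGPTL4 AAV, against 89.6, 75.4, 77.6 and 85.7 CPM in Control AAV. Its log2 fold change was -0.17 (SE 0.09, edgeR adjusted p = 0.337), with nANGPTL4 AAV library 1 second only to Control AAV library 1. Birc3, a ubiquitin ligase that blocks cell death, averaged 35.5 ± 0.924 CPM in nANGPTL4 AAV and 37.9 ± 1.81 CPM in Control AAV (SD, n = 4 each; log2 fold change -0.10, edgeR adjusted p = 0.321). The adaptor Traf1 averaged 3.96 ± 0.464 CPM in nANGPTL4 AAV and 4.01 ± 0.844 CPM in Control AAV, and the TNF-induced gene Tnfaip2 10.3 ± 1.11 CPM in nANGPTL4 AAV and 11.6 ± 2.08 CPM in Control AAV (SD, n = 4 each).

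The IkB inhibitors were dominated by Nfkbia, which encodes IkB alpha and is itself a rapid NF-kB target. Nfkbia was at 793, 557, 586 and 622 CPM in nANGPTL4 AAV, against 747, 537, 599 and 592 CPM in Control AAV. In each group library 1 was far above the other libraries, and the remaining values interleaved. The log2 fold change was 0.05 (SE 0.12, edgeR adjusted p = 0.873), and it was -0.06 without nANGPTL4 AAV library 1, -0.0029 without Control AAV library 2 and 0.16 without Control AAV library 1. Nfkbib, for IkB beta, averaged 39.3 ± 2.17 CPM in nANGPTL4 AAV and 40.1 ± 2.37 CPM in Control AAV (SD, n = 4 each). Nfkbie, for IkB epsilon, averaged 16.2 ± 0.551 CPM in nANGPTL4 AAV and 15.3 ± 0.521 CPM in Control AAV (SD, n = 4 each; log2 fold change 0.08, edgeR adjusted p = 0.480).

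The NF-kB subunits spanned a wide range of levels with the same order of means in both groups. Per kilobase and over all 8 libraries, Rela, which encodes the transactivating subunit p65, was at 113 to 125 CPM. Nfkb2, at 15.8 to 21.4 CPM, and Relb, at 14.3 to 19.3 CPM, encode the pair of the non-canonical pathway, and their ranges overlapped. Nfkb1, the p105 and p50 precursor gene, was at 7.45 to 9.51 CPM per kilobase, and Rel, best known from lymphocytes, at 2.99 to 4.36. Rela was at 365, 358, 386 and 346 CPM in nANGPTL4 AAV libraries 1 to 4, against 374, 382, 362 and 379 CPM in Control AAV libraries 1 to 4, with the Control AAV values inside the range of the nANGPTL4 AAV values (log2 fold change -0.04, SE 0.05, edgeR adjusted p = 0.673). Rel gave the largest log2 fold change of the 5, 0.12 (SE 0.11, edgeR adjusted p = 0.613). The other 4 lay between -0.04 and 0.06, each with an interval within 1.25-fold either way.

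None of the 5 receptor and adaptor genes passed the test either. Tnfrsf1a, the main TNF receptor of most cells, was at 359, 387, 401 and 353 CPM in nANGPTL4 AAV, against 392, 404, 372 and 388 CPM in Control AAV (log2 fold change -0.05, SE 0.05, edgeR adjusted p = 0.641). Il1r1, the signalling receptor for interleukin-1, was at 42.2, 41.2, 46.0 and 43.6 CPM in nANGPTL4 AAV, against 50.9, 51.3, 42.6 and 46.7 CPM in Control AAV. Control AAV library 3 lay among the nANGPTL4 AAV values and the other Control AAV libraries lay above them all. The log2 fold change was -0.15 (SE 0.06, edgeR adjusted p = 0.264). Tnfrsf1b averaged 19.3 ± 1.90 CPM in nANGPTL4 AAV and 18.7 ± 3.39 CPM in Control AAV, Cd40 47.6 ± 3.25 CPM in nANGPTL4 AAV and 47.1 ± 2.84 CPM in Control AAV, and the adaptor Myd88 46.4 ± 4.13 CPM in nANGPTL4 AAV and 45.9 ± 3.09 CPM in Control AAV (SD, n = 4 each).

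Rel varied between libraries with the level of immediate early genes, in both groups. Immediate early and dissociation genes such as Fos and Jun, which rise when tissue is digested into single cells, summed to 20609, 15087.5, 18039 and 19126 CPM in nANGPTL4 AAV libraries 1 to 4, against 19778.5, 12676, 15028 and 16988 CPM in Control AAV libraries 1 to 4. Of the 17 genes in that list, 14 had positive log2 fold changes, and the median of the list was 0.16. In it 0 were called and 0 had an unadjusted p under 0.05, against 17.6% of all genes. Rel was at 32.6, 25.1, 25.5 and 30.9 CPM in nANGPTL4 AAV, against 31.4, 22.3, 24.7 and 26.3 CPM in Control AAV, and followed that sum nearly in rank. Over the 8 libraries, log2 Rel and the log2 sum had a Pearson r of 0.93 (exact permutation p = 0.00067, adjusted p = 0.0208 over 31 genes) and a Spearman rho of 0.98 (exact permutation p = 0.000397, adjusted p = 0.0123). Without Control AAV library 2 and nANGPTL4 AAV library 1, the farthest from the median sum, r was 0.87. Nfkbia had an r of 0.82 and Myd88 one of 0.79, and both missed the threshold after adjustment (exact permutation, adjusted p = 0.158 for Nfkbia and 0.236 for Myd88). Rel was the only one of the 31 relations that passed, and 14 were positive and 17 negative. In both groups the sum and Rel ran in the same order, from library 1 down through 4 and 3 to 2. The permutation takes the 8 libraries as independent. The labels name no batch, and the parts of the cell isolation and of an order shared by number were not tested.

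**Figure D4:**
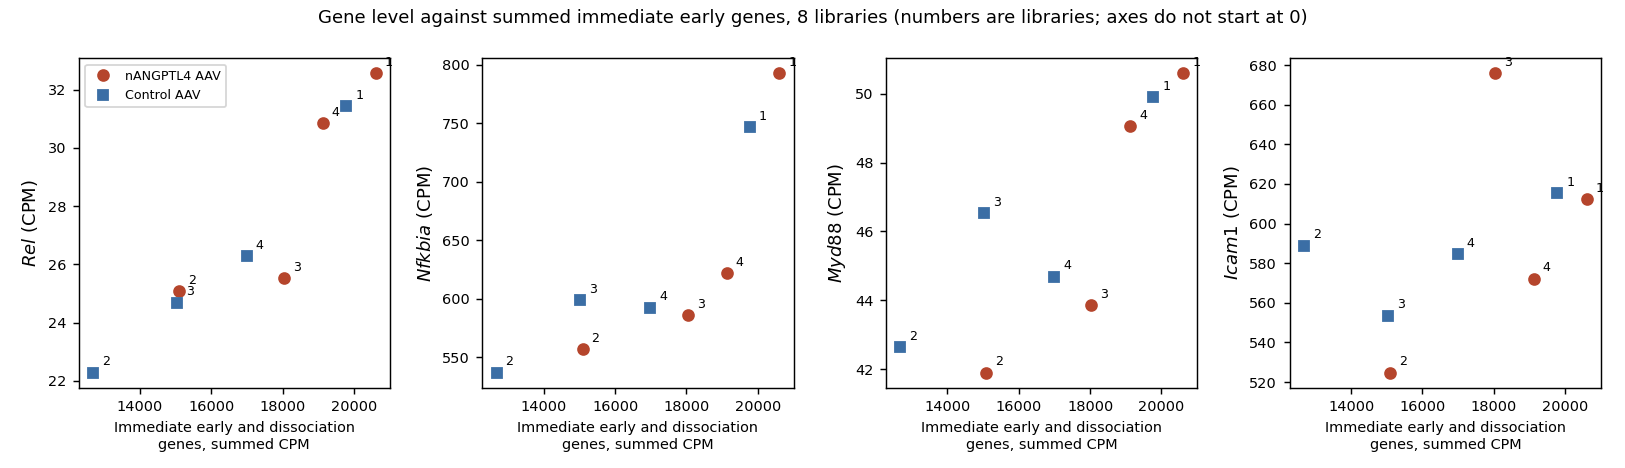
CPM of Rel, Nfkbia, Myd88 and Icam1 against the summed CPM of 17 immediate early and dissociation genes in the 8 libraries, nANGPTL4 AAV as red circles and Control AAV as blue squares, numbered by library. Rel climbs with the sum in both groups, Nfkbia is highest in library 1 of each group, and the points of Icam1 scatter (r 0.46).

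No other gene of the pathway passed in edgeR's standard quasi-likelihood fit (the robust fit called Jam2), and 37 had positive and 64 negative values. These came from 6 lists of 119 genes, of which 116 were in the matrix and 101 were tested. Among the 101, 0 were called. At an unadjusted p under 0.05 there were 22 (3 higher and 19 lower, 21.8% against 17.6% of all genes). Without overlap of the groups, 3 were higher and 7 lower, where 10.9% of all genes did not overlap. The median log2 fold change was -0.05, against 0.01 over all genes tested and -0.03 over genes with a mean log2 CPM above 3. DESeq2 called 10 (9.90%, against 5.07% of all genes). Of its calls 9 were lower here, and over all genes 308 were higher and 648 lower. They were Otulin higher and Ackr2, Ackr3, Bcl3, Gcnt1, Jam2, Mcam, Tab3, Tlr3 and Tlr4 lower. Jam2, a junctional adhesion molecule through which leukocytes cross the vessel wall, came closest in edgeR, at 162, 160, 160 and 173 CPM in nANGPTL4 AAV, against 205, 211, 188 and 198 CPM in Control AAV. Every nANGPTL4 AAV library was below every Control AAV library (log2 fold change -0.29, SE 0.05, adjusted p = 0.0581). Gcnt1, a glycosyltransferase that builds selectin ligands, averaged 4.77 CPM in nANGPTL4 AAV and 7.09 CPM in Control AAV, with a log2 difference of -0.57 and an SE of 0.14 (edgeR adjusted p = 0.0948).

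Of the kinases, Tab3, a partner of the TAK1 kinase upstream of IKK, averaged 12.1 CPM in nANGPTL4 AAV and 15.2 CPM in Control AAV, without overlap (log2 fold change -0.32, SE 0.06, edgeR adjusted p = 0.0642), and Tbk1 had one of -0.19. Among the ubiquitin factors Traf3 had a log2 fold change of -0.17. Otulin, a deubiquitinase of linear chains, had one of 0.26 and was higher in every nANGPTL4 AAV library than in any Control AAV library. The Toll-like receptors Tlr4 (-0.24) and Tlr3 (-0.22) had lower values in every nANGPTL4 AAV library than in any Control AAV library. In the list of other IkB family and target genes, the smallest p belonged to the nuclear IkB family members Bcl3, with a log2 fold change of -0.33, and Nfkbid, with one of 0.36. Of the chemokine genes, the scavenging receptors Ackr3 (190 CPM in nANGPTL4 AAV and 235 CPM in Control AAV, -0.30) and Ackr2 (332 CPM in nANGPTL4 AAV and 397 CPM in Control AAV, -0.25) had the smallest p. Adjusted p in edgeR was 0.0988 for Ackr3, 0.118 for Ackr2, 0.107 for Bcl3, 0.160 for Nfkbid, 0.108 for Tlr4, 0.115 for Tlr3, 0.123 for Traf3, 0.138 for Otulin and 0.1699 for Tbk1.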

How the data were processed

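Read counts per gene were deposited by the authors for 8 libraries, as whole numbers that were not normalized. Cells were sorted by flow cytometry and libraries made with a low-input cDNA kit, per the labels' protocols. The submitters' processing notes name mm10 as the build. The aligner, counter, annotation and strand setting are not given in the sources used here. Without strand, reads of overlapping genes on the other strand cannot be separated, and such genes cover 18.3% of the exonic bases of Cxcl16, 14.5% of Nfkbib, 11.7% of Icam1, 11.6% of Nfkb2, 11.3% of Myd88, 9.93% of Selp and 6.30% of Tnfaip2. Symbols were found for 31491 of 31610 identifiers without their version, and lengths and positions came from GENCODE M21.

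Counts were fitted over all genes with edgeR 4.0.16 in R 4.3.3 (filterByExpr with a minimum count of 10, TMM scaling, quasi-likelihood F test with the group as the only term, Benjamini-Hochberg adjustment over 18874 genes, called under 0.05). Standard errors and 95% intervals came from the F statistic. DESeq2 1.42.0 and limma 3.58.1 were alternatives, and the fits were tested on simulated data. Members and lists were chosen with earlier results of these data known. By rule, genes shown in full were the most abundant of each role, any called or not overlapping, and any of at least 1 CPM with an absolute log2 fold change over 0.3 (only the first applied). The others shown in full were chosen after their values were seen, as were the relations to immediate early genes. The 2 genes with the smallest p were named from each pathway list. Alternatives were other scalings, filters, tests, a block and omitted libraries. Protein sequences were not used here. Depth gives small counting error for all but the lowest genes.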

Additional observations from a re-analysis of the deposited data

Results flagged for a closer look

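In 6 of 62 groups of 4 libraries, 31 genes in each of 2 groups, 1 library lay far from the other 3, where chance sets about 1 in 20 groups apart. Vcam1 was at 62.9 CPM in nANGPTL4 AAV library 1, above the other nANGPTL4 AAV libraries. Tnfrsf1b was at 22.1 CPM in nANGPTL4 AAV library 2, also above its group. In Control AAV library 2, Lcn2 was at 0.929 CPM and Cd40 at 51.3 CPM, both the highest of their group. Traf1 was at 5.26 CPM in Control AAV library 4, the highest of its group, and Nfkbib at 36.6 CPM in Control AAV library 1, the lowest of its group. The cause of these values was not tested.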

How the results depend on the processing

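No gene of the group was called in any of 18 alternative fits or at an adjusted p under 0.1, and the smallest adjusted p was 0.150, for Tnip1 with library size only. Of 556 recomputed fold changes, 541 moved by less than 1 SE and 56 changed sign, in 17 genes whose log2 fold change was at most 0.20 either way. In 14 genes the sign held in every fit. Over all genes, 26 calls (9 higher, 17 lower) became 4 (3 higher, 1 lower) with upper quartile scaling or library size only, 17 with the stricter low-count filter, 956 with DESeq2, 59 with the robust edgeR fit and 471 at an adjusted p under 0.1. The fit with a replicate block gave 6 calls over all genes and 0 in the group. The numbers were not taken to pair libraries, since deviations from the group means correlated at -0.33 to 0.16 between same-numbered libraries. Only nANGPTL4 AAV library 1 (0.12) and Control AAV library 2 (0.16) correlated best with their own number in the other group. For nANGPTL4 AAV libraries 3 and 4 the correlation with their own number was the most negative (-0.33 and -0.30). Some genes did vary alike by number in both groups. With the block, the SE fell from 0.11 to 0.06 for Rel, 0.12 to 0.05 for Nfkbia and 0.09 to 0.06 for Tnfaip3. For others, such as Birc3 (0.05 to 0.06) and Traf1 (0.15 to 0.17), it rose. Whether the numbers mark a shared preparation was not tested. Leaving out 1 library gave 1 to 2 calls, and leaving out both libraries numbered 1, added after the data were seen, gave 0. Some fits had fewer genes or libraries, and the cause of these changes was not tested. Pathway genes went from 0 calls to 10 with DESeq2, 1 with the robust fit (Jam2) and 4 at an adjusted p under 0.1. Il6, Cxcl1, Cxcl2 and Lcn2 had low counts and wide intervals, and 4 genes were too low to test.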

Other observations

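Nfkb2 and Relb, whose proteins form the dimer of the non-canonical pathway, had overlapping groups and similar orders of libraries. Nfkb2 was at 88.1, 81.8, 81.6 and 73.2 CPM in nANGPTL4 AAV, against 72.2, 98.2, 84.9 and 78.5 CPM in Control AAV, and Relb at 69.9, 65.7, 63.0 and 55.6 CPM in nANGPTL4 AAV, against 58.3, 75.0, 63.4 and 61.8 CPM in Control AAV. Both were highest in Control AAV library 2. Against the summed immediate early genes both had negative correlations over 8 libraries (Pearson r -0.66 for Nfkb2 and -0.57 for Relb, Spearman rho -0.48 and -0.43), which did not pass (exact permutation, adjusted p = 0.394 and 0.580 for r, 0.753 and 0.842 for rho), opposite in sign to Rel, Nfkbia and Myd88. Such values were not particular to this pair, and 17 of the 31 relations were negative. Nfkbib, with an r of -0.69, and Tnfaip2, with one of -0.66, did not pass either (exact permutation, adjusted p = 0.394 for each r). Without the 2 libraries farthest from the median sum, r was -0.87 for Nfkb2, -0.83 for Relb, -0.90 for Nfkbib and -0.58 for Tnfaip2. Other negative relations shrank or changed sign with the same omission. Among them were Lcn2 (r -0.54 to 0.04), Tnfrsf1a (-0.50 to -0.02) and Birc3 (-0.44 to 0.16). No p was computed for r without these libraries. The difference between the negative and the positive correlations was not tested.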
